A study of Mus musculus with 9 samples.

Results

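The clustered protocadherins are the members of the Pcdha, Pcdhb and Pcdhg gene clusters of mouse chromosome 18. They were taken by gene symbol, as every row named for an alpha, beta or gamma variable gene or for 1 of the 5 C-type genes. Of the 54232 gene rows of the table, 58 were members: 14 in the alpha cluster, 22 in the beta cluster and 22 in the gamma cluster. On GRCm38 the alpha members lay at chr18:36930184-37187661, the beta members at chr18:37264938-37524479 and the gamma members at chr18:37661793-37841873, all on the plus strand. Of the 58, 56 passed the filter on low counts, and Pcdha1 and Pcdhb1, the first genes of their clusters, did not.

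The RNA came from primary mouse neural stem cells, embryonic per the protocol and labelled as subventricular zone tissue, which were grown on laminin with FGF and EGF. Cells received the Phf2 hairpin sh900, the Phf2 hairpin sh902 or the non-targeting hairpin shNT, and were harvested 3 days later, with 3 libraries in each group. Every group held 1 library labelled 3 September, 1 labelled 30 August and 1 with no date. What these labels mark is not stated, and no source says that libraries came from separate cultures or animals, so the p-values reflect variation among these 9 libraries and this may be technical. No genotype or strain is labelled, and all groups had received a short hairpin RNA.

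Clustered protocadherins are cadherin-like adhesion proteins that bind the same isoform on a facing membrane, and neurons use different combinations of them to tell their own branches from those of other cells. Each variable exon has its own promoter. In the alpha and gamma clusters the chosen exon is spliced to constant exons shared by the whole cluster, while the beta genes are single-exon genes with no constant part. In neurons the alternate genes are chosen in a largely random way that involves CTCF, cohesin and DNA methylation of the promoters, whereas the C-type genes at the end of the alpha and gamma clusters are used more constantly.

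Phf2, a demethylase of the KDM7 family and the target of both hairpins, checked the labels. It had 26.8, 13.5 and 19.02 CPM (counts divided by the library total, as CPM) in the sh900 libraries of 3 September, 30 August and no date. It had 29.2, 17.0 and 25.7 CPM in the sh902 libraries and 49.5, 51.6 and 57.4 CPM in the shNT libraries, in the same order. Every hairpin library was below every shNT library. In edgeR's quasi-likelihood test on hairpin group alone, Phf2 had a log2 fold change against shNT, averaged over the hairpins, of -1.28 ± 0.20 (SE, adjusted p = 0.182). Once the date label was added to the model as a replicate block, it was -1.32 ± 0.16 (SE, adjusted p = 0.00519).

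Neural stem cell markers summed to between 4477 and 11013 CPM over the 9 libraries, with none of the 12 genes at 0 in any library. Vim was the most abundant of the 12. The 11 oligodendrocyte lineage markers summed to between 1340 and 3132 CPM, also with none at 0. The 8 microglia markers summed to at most 3.33 CPM, and 6 of them were at 0 in at least 1 library. Library totals ran from 23212472 to 32392496 counts, and 17602 genes were tested. Astrocyte markers summed to 10571, 2370 and 3314 CPM in the sh900 libraries of 3 September, 30 August and no date, to 6993, 2181 and 3352 CPM in the sh902 libraries, and to 17402, 3086 and 10830 CPM in the shNT libraries. Neuronal markers summed to 1763, 1026 and 1319 CPM with sh900, to 1470, 864 and 1228 CPM with sh902, and to 2749, 1211 and 1994 CPM with shNT. The 8 proliferation markers summed to 167 CPM in the shNT library of 3 September and to 2368 CPM in that of 30 August, with the other 7 libraries between 520 and 1435 CPM. In bulk RNA, fewer cells that use a gene and less RNA of it per cell cannot be told apart.

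The gamma cluster dominated. It held 82.9% of all member counts over the 9 libraries, the beta cluster 14.0% and the alpha cluster 3.11%. The 3 gamma C-type genes alone held 69.6%. Per length, Pcdhgc3, an isoform known to bind Axin1 and to promote dendrite arborization in cortical neurons, averaged 256 RPKM (CPM per kilobase of exon). Pcdhgc4, the isoform needed for survival of spinal and cortical interneurons in mice, averaged 41.1 RPKM. Pcdhgb8, the highest alternate gene, which GENCODE M21 lists as a polymorphic pseudogene, averaged 11.3 RPKM. The other members ran from 0.0225 RPKM for Pcdha1 to 7.41 RPKM for Pcdhb20. These lengths include bases shared with at least 1 other member, among them the constant exons, which made up 38.0 to 54.9% of the exonic bases of alpha members and 27.8 to 66.8% of those of gamma members. The deposited values divide reads of the constant exons between members by RSEM's model, so isoform levels in these clusters are less certain than in the beta cluster. There only Pcdhb21 and Pcdhb22 share bases with another member, 455 each. The antisense row Gm37446, not a member, overlaps Pcdhb12 by 1927 bases. Over the 9 libraries it had 0.933 to 5.47 CPM, beside 1.03 to 5.74 CPM for Pcdhb12. Nothing states that the counting used strand, so reads of these rows cannot be told apart with certainty.

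The 2 members that failed the filter were near 0. Pcdha1 had 0.0772, 0 and 0.0617 CPM in the sh900 libraries, 0.129, 0.0857 and 0 CPM in the sh902 libraries and 0.505, 0.150 and 0.0744 CPM in the shNT libraries. Pcdhb1 stayed at or under 0.310 CPM in all 9. No comparison was made for either.

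The comparison of Phf2 hairpins with shNT asks which members differ when Phf2 is lowered. Summed over the cluster, beta transcripts were lower in 5 of 6 hairpin libraries than in the shNT library of the same label, alpha transcripts in 5 of 6, and gamma transcripts in all 3 sh902 libraries and none of the sh900 libraries. The beta sum was 361, 296 and 256 CPM in the sh900 libraries of 3 September, 30 August and no date. It was 283, 266 and 243 CPM in the sh902 libraries and 592, 285 and 459 CPM in the shNT libraries. The shNT libraries of 3 September and no date stood above all 6 hairpin libraries, and that of 30 August lay among them. The gamma sum was 2064, 2763 and 2155 CPM with sh900, 1529, 1800 and 1349 CPM with sh902, and 1720, 2314 and 2059 CPM with shNT. At each label sh900 was highest and sh902 lowest. The alpha sum was 80.9, 92.7 and 46.2 CPM with sh900, 73.7, 80.9 and 47.4 CPM with sh902, and 79.7, 108 and 69.3 CPM with shNT, and here the groups overlapped. The 2 shNT libraries with high beta sums also had the highest astrocyte and neuronal marker sums of all 9 libraries, whose part in the result was not tested.

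**Figure D1:**
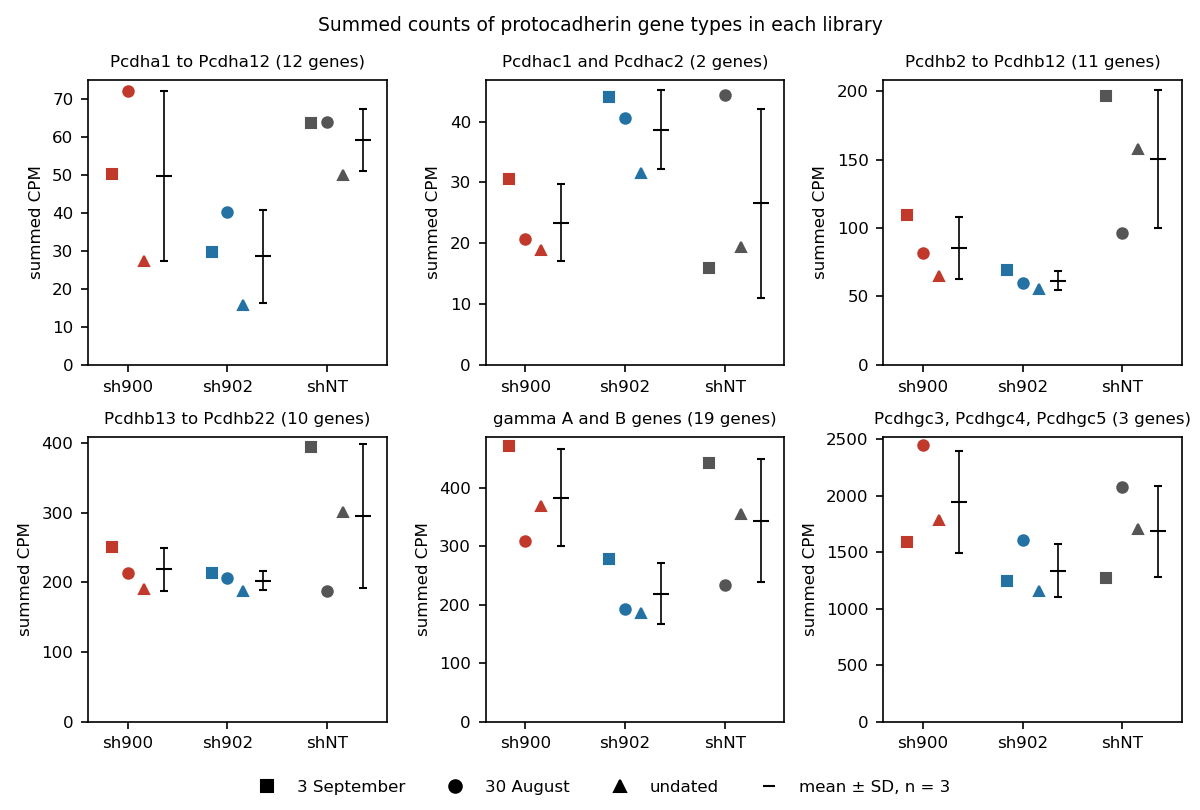
Summed CPM (y axes, linear from 0) of 6 types of clustered protocadherin in each library, by group (x axes: sh900, sh902, shNT). Each marker is 1 library, its shape the date label, and the bar is the mean ± SD of 3 libraries. In the Pcdhb2 to Pcdhb12 panel the shNT libraries of 3 September and no date stand at 197 and 158 CPM, above every hairpin library, and the shNT library of 30 August at 96.5 CPM; the gamma panels place sh902 lowest at every label.

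With hairpin group alone in the model, edgeR called none of the 56 tested members for the mean of both hairpins, for sh900, for sh902 or between the hairpins, at an adjusted p under 0.05 over all 17602 genes, where the share of all genes called was also 0%. Members with an unadjusted p under 0.05 numbered 16, 5, 26 and 9 in these comparisons, out of 2809, 2585, 2776 and 2532 genes. DESeq2 on the same model called 3, 1, 6 and 6 of the 56 members in these comparisons, when it called 4.75%, 4.84%, 5.34% and 6.97% of all genes that it gave an adjusted p. The first and second of these counts are near or under that background. The model on hairpin group alone was the main one, and the replicate block was its first alternative. Calls below are from the fit with the replicate block, and a member is said to rise or fall only where that fit called it. The main model made none of these hairpin calls. The block also treats the undated libraries as a set, though they share only the lack of a date.

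With the block, 11 members fell and 1 rose for the mean of both hairpins against shNT, when 5.59% of all genes fell and 6.08% rose. The 11 were 9 beta members (Pcdhb2, Pcdhb3, Pcdhb5, Pcdhb6, Pcdhb7, Pcdhb8, Pcdhb10, Pcdhb11 and Pcdhb19) and the alpha members Pcdha3 and Pcdha6. The riser was Pcdhgc5. The median log2 fold change was -1.07 over 13 alpha, -0.77 over 21 beta and -0.16 over 22 gamma members, beside -0.02 over all genes. Without the block these medians were -0.65, -0.79, -0.22 and -0.03, so alpha and beta changed order with the model. Calls were sensitive to the libraries included. Every called member kept its sign when each library was left out in turn, but none of the 12 calls held in all 9 of those fits, and the count ran from 0 without the undated shNT library to 29 without the shNT library of 30 August. The share of all genes called in the fits with a library left out was not counted. On the 6 dated libraries alone, edgeR with the block called 0 members, with 14 of 56 at an unadjusted p under 0.05, and without the undated shNT library it called 0, with 16.

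All 21 tested beta members had a negative log2 fold change with each hairpin in the fit over all 9 libraries. Single labels differed. In the 3 September and undated libraries of each hairpin, all 21 were below the shNT library of the label. On 30 August, 10 were below and 11 above with sh900, and 15 below and 6 above with sh902. For the mean of both hairpins, fold changes were larger at the start of the cluster. Pcdhb2 to Pcdhb12 had a median of -1.02 with 8 of 11 called. Pcdhb13 to Pcdhb22 had a median of -0.47 with 1 of 10 called, a division made after the values were seen. Over the 21 members the log2 fold change and the position in the cluster had a Spearman correlation of 0.84. The same correlation of single-library ratios to the shNT library of the label was 0.49, 0.40 and 0.68 in the sh900 libraries of 3 September, 30 August and no date and 0.80, 0.69 and 0.70 in the sh902 libraries. The members of 1 library share its depth and its control, and in this cluster position also went with level (0.65 between position and mean CPM), so these correlations describe the libraries and carry no test.

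Pcdhb2 illustrates the leading beta genes. It had 8.68, 5.20 and 4.23 CPM in the sh900 libraries of 3 September, 30 August and no date, 5.13, 3.04 and 3.50 CPM in the sh902 libraries, and 15.6, 6.91 and 12.95 CPM in the shNT libraries. Each hairpin library was below its own control, while the shNT library of 30 August lay below the sh900 library of 3 September, so the groups overlapped. Its log2 fold change was -1.26 ± 0.21 (SE, adjusted p = 0.0122) for the mean of both hairpins, and only the fit without the undated shNT library lost that call.

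Pcdhb5 was the member whose 6 hairpin libraries all lay below the 3 shNT libraries, 1 of 56, a share under the 2.62% of all genes that did so. It had 9.84, 11.2 and 5.93 CPM with sh900, 6.76, 12.2 and 8.003 CPM with sh902 and 17.97, 20.3 and 16.6 CPM with shNT. The log2 fold change of the mean was -1.05 ± 0.18 (SE, adjusted p = 0.0126). Pcdhb5, Pcdhb10 and Pcdhb11 were the 3 members called with each hairpin on its own, in comparisons that share the shNT libraries. The share of all genes called with both hairpins was not counted. With a library left out, the sh900 calls of these members held in 3, 2 and 2 of 9 fits. Their sh902 calls held in 5, 5 and 6. Pcdhb10 had 9.49, 2.37 and 5.65 CPM with sh900, 6.25, 2.74 and 4.81 CPM with sh902 and 20.1, 3.83 and 15.0 CPM with shNT, a mean log2 fold change of -1.18 ± 0.22 (SE, adjusted p = 0.0164). Its 30 August libraries were the lowest of each group, the control included.

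Most members at the far end of the beta cluster were not called. Pcdhb17 had 34.8, 31.1 and 27.3 CPM with sh900, 27.2, 28.7 and 23.0 CPM with sh902, and 50.6, 19.5 and 38.1 CPM with shNT. Both hairpins were below control on 3 September and in the undated set and above it on 30 August. Its mean log2 fold change was -0.27 ± 0.24 (SE, adjusted p = 0.498). Pcdhb22, the last and most abundant beta gene, showed the same order: 40.6, 40.1 and 36.4 CPM with sh900, 35.7, 38.2 and 32.2 CPM with sh902, and 49.0, 32.4 and 44.3 CPM with shNT. Its mean log2 fold change was -0.15 ± 0.15 (SE, adjusted p = 0.540). Pcdhb19, with 40.8, 21.2 and 22.7 CPM in sh900 libraries, 31.5, 21.4 and 22.1 CPM in sh902 libraries and 70.1, 22.9 and 49.2 CPM in shNT libraries, was the 1 called member of this end (log2 fold change -0.75 ± 0.19, SE, adjusted p = 0.0412). Its call held in 2 of the 9 fits with a library left out.

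In the alpha cluster the log2 fold change of the mean ran from -1.70 for Pcdha3 to 0.30 for Pcdhac2, with a Spearman correlation with position of 0.86 over 13 members and 0.78 over the 11 alternate genes alone. Single libraries varied more. Over the 13 members the correlation was 0.74, 0.31 and 0.71 in the sh900 libraries of 3 September, 30 August and no date and 0.90, 0.82 and 0.32 in the sh902 libraries, and over the alternate genes it was -0.13 in the undated sh902 library. The fold change also went with level, with a correlation of 0.63 between it and mean CPM, and these values again carry no test. Levels were low: Pcdha3 had 0.926, 3.27 and 0.432 CPM with sh900, 0.517, 1.16 and 0.313 CPM with sh902 and 3.65, 3.42 and 1.41 CPM with shNT. All 3 sh902 libraries lay below all shNT libraries, and the 30 August sh900 library lay among the controls. Its mean log2 fold change was -1.70 ± 0.36 (SE, adjusted p = 0.0241), a call that held in 3 of 9 fits with a library left out, and that of Pcdha6 (-1.44 ± 0.39, SE, adjusted p = 0.0497) held in 1.

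The alpha C-type genes were not called. Pcdhac2, which serotonergic neurons need to spread their axons, was the most abundant alpha member, with 26.6, 18.95 and 17.4 CPM in sh900 libraries, 40.1, 38.6 and 30.6 CPM in sh902 libraries and 13.04, 41.7 and 17.9 CPM in shNT libraries. The 3 sh902 libraries lay above the 3 sh900 libraries, and the shNT libraries spread over both. Its log2 fold change was 0.30 ± 0.31 (SE, adjusted p = 0.576) for the mean of both hairpins and -0.72 ± 0.35 (SE, adjusted p = 0.275) for sh900 against sh902. Pcdhac1 had 3.94, 1.72 and 1.42 CPM with sh900, 3.88, 1.93 and 0.907 CPM with sh902 and 2.87, 2.63 and 1.41 CPM with shNT, and its mean log2 fold change was -0.12 ± 0.27 (SE, adjusted p = 0.825).

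**Figure D2:**
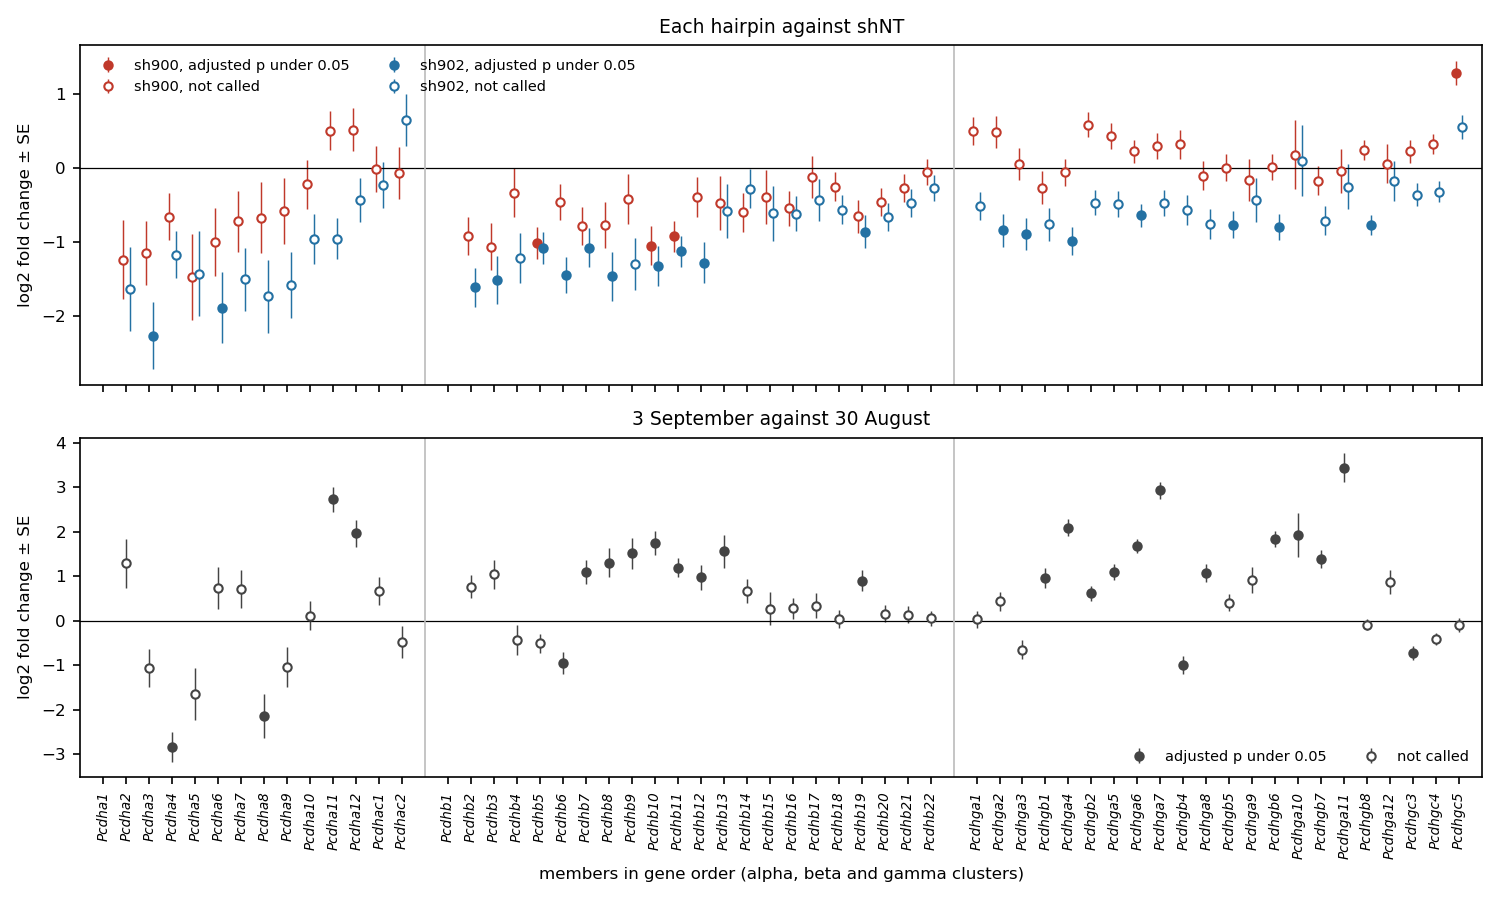
Log2 fold change ± SE (y axes) of each tested member in gene order (x axis; Pcdha1 and Pcdhb1 were not tested) from edgeR with the replicate block: each hairpin against shNT above, 3 September against 30 August below. Filled points had an adjusted p under 0.05 over all genes; all 21 beta points lie below 0 with each hairpin and come closer to 0 toward Pcdhb22, sh900 lies above sh902 at all 22 gamma members, and the date points scatter from -2.83 for Pcdha4 to 3.44 for Pcdhga11.

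Pcdhgc5, the last gene of the gamma cluster, went the other way. In mouse brain it is known as an isoform whose expression comes up after birth and whose protein is found at a subset of synapses. It had 35.3, 27.4 and 25.7 CPM in the sh900 libraries of 3 September, 30 August and no date, 19.6, 19.6 and 16.7 CPM in the sh902 libraries and 10.9, 13.9 and 12.4 CPM in the shNT libraries. The 3 groups did not overlap, with sh900 highest and shNT lowest. It was the 1 member of 56 with all hairpin libraries above all shNT libraries, a share under the 4.15% of all genes so placed. Its level averaged 29.5 ± 5.13 CPM with sh900, 18.6 ± 1.68 CPM with sh902 and 12.4 ± 1.499 CPM with shNT (SD, n = 3 each). Its log2 fold change was 0.92 ± 0.15 (SE, adjusted p = 0.0103) for the mean, 1.29 ± 0.16 (SE, adjusted p = 0.00777) for sh900 and 0.56 ± 0.16 (SE, adjusted p = 0.0674) for sh902. The call on the mean was lost in 1 of the 9 fits with a library left out, that without the undated shNT library, where the log2 fold change was 0.99.

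The other gamma C-type genes were not called against shNT. Pcdhgc3 had 1312, 2099 and 1503 CPM in sh900 libraries, 1041, 1371 and 992 CPM in sh902 libraries and 1056, 1810 and 1477 CPM in shNT libraries. The groups overlapped, and within each label sh900 was highest and sh902 lowest. Its mean log2 fold change was -0.06 ± 0.14 (SE, adjusted p = 0.813). The antisense row BC037039, which overlaps the start of Pcdhgc3, had 32.1, 37.0 and 22.8 CPM with sh900, 27.9, 22.3 and 21.6 CPM with sh902 and 21.7, 27.6 and 34.1 CPM with shNT. Nothing states that the counting used strand, so reads of the 2 rows cannot be told apart with certainty.

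Against shNT, sh900 had 3 members lower and 1 higher, when 3.45% of all genes were lower and 5.39% higher. Against shNT, sh902 had 19 members lower and 0 higher, when 5.39% of all genes were lower and 5.12% higher. The 19 were 10 beta, 7 gamma and 2 alpha members. With sh902, 14 members had all libraries below all shNT libraries, when 9.18% of all genes did. Without the undated shNT library these counts were 1 for sh900 and 0 for sh902 (12 and 32 at an unadjusted p under 0.05), and without that of 30 August 15 and 41. The share of all genes called in those fits was not counted, so these counts describe how the calls depend on the libraries. Both comparisons share the shNT libraries, and the difference between hairpins was tested directly.

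Between the hairpins, 11 members were higher with sh900 than with sh902 and 0 were lower, when 2.48% of all genes were higher and 1.74% lower. They were 10 of the 22 gamma members and Pcdha11, and no beta member. All 22 gamma members had a positive log2 fold change, from 0.08 for Pcdhga10 to 1.33 for Pcdhga2, with a median of 0.77, beside 0.28 over the beta members and -0.01 over all genes. On 30 August alone, Pcdhga9, Pcdhga10, Pcdhga11 and Pcdhga12 were lower with sh900 than with sh902 (log2 ratios -0.44, -0.81, -0.73 and -0.51). Gamma members also share reads of the constant exons, so their directions are not separate observations. The gamma sum of sh900 over sh902 at the same label was 0.43, 0.62 and 0.68 on the log2 scale for 3 September, 30 August and no date, and without Pcdhgc3 it was 0.63, 0.63 and 0.87. These 11 calls depended on the libraries included. Leaving out 1 hairpin library took the count to between 0 and 2, and it was 3 without the shNT library of 3 September and 19 without that of 30 August. Here too the share of all genes called was not counted.

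Pcdhgb8 had the smallest adjusted p of the 11. It had 64.7, 66.4 and 65.0 CPM in sh900 libraries, 37.6, 35.5 and 29.4 CPM in sh902 libraries and 57.4, 56.7 and 56.5 CPM in shNT libraries. The groups were fully apart, with sh900 highest and sh902 lowest. For sh900 against sh902 the log2 fold change was 1.02 ± 0.13 (SE, adjusted p = 0.0201), and it was 0.25 ± 0.13 (SE, adjusted p = 0.264) for sh900 against shNT and -0.77 ± 0.13 (SE, adjusted p = 0.0152) for sh902 against shNT. The call between the hairpins held in 5 of 9 fits with a library left out.

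Pcdhga1, the first gamma gene, had 33.1, 34.5 and 28.5 CPM with sh900, 18.9, 18.1 and 13.4 CPM with sh902 and 26.2, 19.1 and 24.8 CPM with shNT. The groups were again apart, with shNT between the hairpins, and the log2 fold change of sh900 against sh902 was 1.02 ± 0.19 (SE, adjusted p = 0.0318). Pcdhgc4 had 246, 328 and 257 CPM with sh900, 189, 216 and 154 CPM with sh902 and 210, 257 and 214 CPM with shNT. There the hairpins were apart and the shNT libraries overlapped both, with a log2 fold change of sh900 against sh902 of 0.65 ± 0.14 (SE, adjusted p = 0.0432). In all, 8 members, all gamma, had every sh900 library above every sh902 library, when 9.36% of all genes did. Phf2 itself did not differ between the hairpins beyond the test (log2 fold change -0.22 ± 0.19, SE, adjusted p = 0.550).

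More members were called between date labels than between hairpins and shNT, a difference that was not tested. On 3 September, 21 members were higher and 5 lower than on 30 August, with the group as a term, when 10.4% of all genes were higher and 10.1% lower. Of the 26 calls, 12 held in all 9 fits with a library left out. In 24 members all 3 libraries of 3 September lay above all 3 of 30 August, when 20% of all genes did, and in 4 below, when 10.5% of all genes did. The higher members were 11 gamma, 8 beta and 2 alpha genes, and the lower ones were Pcdha4, Pcdha8, Pcdhb6, Pcdhgb4 and Pcdhgc3.

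The most abundant alternate gene of the alpha cluster differed between labels, and in the gamma cluster the next after the leading one did. Pcdha4 had 2.86, 1.85 and 3.73 CPM in the 3 September libraries of sh900, sh902 and shNT, against 20.5, 12.4 and 21.1 CPM in those of 30 August. Pcdha12 had 17.7, 10.6 and 12.8 CPM on 3 September, against 4.38, 3.00 and 2.29 CPM on 30 August. The labels did not overlap for either gene, and the log2 fold changes of 3 September against 30 August were -2.83 ± 0.33 (SE, adjusted p = 0.00179) for Pcdha4 and 1.97 ± 0.30 (SE, adjusted p = 0.00493) for Pcdha12. Pcdha12 led the alternate alpha genes in all 3 libraries of 3 September, with 20.1 to 35.7% of their counts, and Pcdha4 in all 3 of 30 August, with 28.5 to 32.9%. In the undated set Pcdha12 led in both hairpin libraries, and Pcdha4, at 20.0%, stood just before Pcdha12, at 19.4%, in the shNT library. Pcdha11 had 5.64, 2.37 and 4.42 CPM on 3 September, against 0.897, 0.300 and 0.564 CPM on 30 August (log2 fold change 2.73 ± 0.29, SE, adjusted p = 0.00123).

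The gamma A genes Pcdhga11 and Pcdhga7 had the largest log2 fold changes between labels among the 56 members. Pcdhga11 had 20.3, 14.0 and 23.1 CPM in the 3 September libraries of sh900, sh902 and shNT, against 1.22, 2.18 and 1.43 CPM in those of 30 August. Its undated libraries lay between, at 7.07, 4.60 and 6.40 CPM. The log2 fold change of 3 September against 30 August was 3.44 ± 0.33 (SE, adjusted p = 0.000947). Pcdhga7 had 40.2, 24.0 and 34.3 CPM on 3 September, against 4.81, 3.47 and 3.49 CPM on 30 August (log2 fold change 2.93 ± 0.19, SE, adjusted p = 0.000195). Pcdhga4, Pcdhga5, Pcdhga6, Pcdhgb6, Pcdhgb7 and Pcdhb10 were higher on 3 September by 1.10 to 2.10 on the log2 scale (edgeR, adjusted p from 0.000850 to 0.00590). Pcdhgb8 remained the leading alternate gamma gene in all 9 libraries, with 12.98 to 24.3% of the A and B counts, while the next gene was Pcdhga7 in the 3 libraries of 3 September and Pcdhgb4 in the 3 of 30 August.

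**Figure D3:**
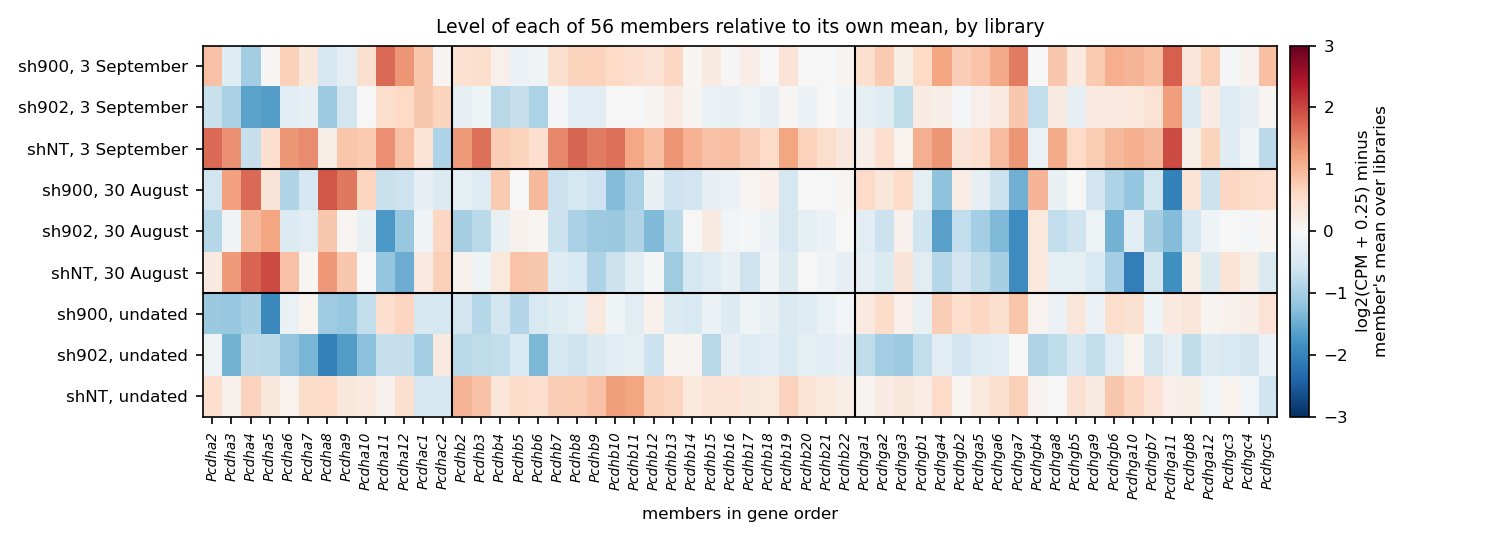
Deviation of log2(CPM + 0.25) of each of the 56 tested members from its own mean over the 9 libraries (colour scale, red above and blue below the mean), with members in gene order on the x axis and libraries on the y axis, grouped by date label with the hairpins above shNT. The rows of 1 label resemble each other across hairpins: Pcdha4 is high and Pcdhga7 and Pcdhga11 are low in all 3 libraries of 30 August, and the reverse holds on 3 September.

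Libraries of 1 label deviated alike. For the 3 libraries labelled 3 September, the deviations of log2 CPM from the group mean over 56 members had pairwise Pearson correlations of 0.691 to 0.817, and over 17602 genes of 0.456 to 0.645. The 30 August libraries gave 0.828 to 0.888 over members and 0.402 to 0.627 over genes. For the undated libraries these ranges were 0.491 to 0.662 and 0.0799 to 0.399. Members of 1 library share its depth, and members of a cluster share reads, so these are descriptions. Over members, the closest library was always 1 of the same label, for 9 of 9 libraries, and over all genes for 8. Deviations of 3 libraries from their mean sum to 0, which lowers values between labels. Several lists of cell type markers also differed between labels. On 3 September, against 30 August, 10.4% of all genes were higher and 10.1% lower. Of astrocyte markers 10 of 12 were higher, of neuronal 9 of 18, of oligodendrocyte lineage 7 of 10 and of vascular 5 of 8, and 0, 2, 0 and 0 were lower. Of 12 neural stem cell markers 4 were higher and 2 lower, and of 8 proliferation markers 0 were called. Of 10 p53 targets 9 were lower and 0 higher. The part of these in the difference in isoforms was not tested.

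**Figure D4:**
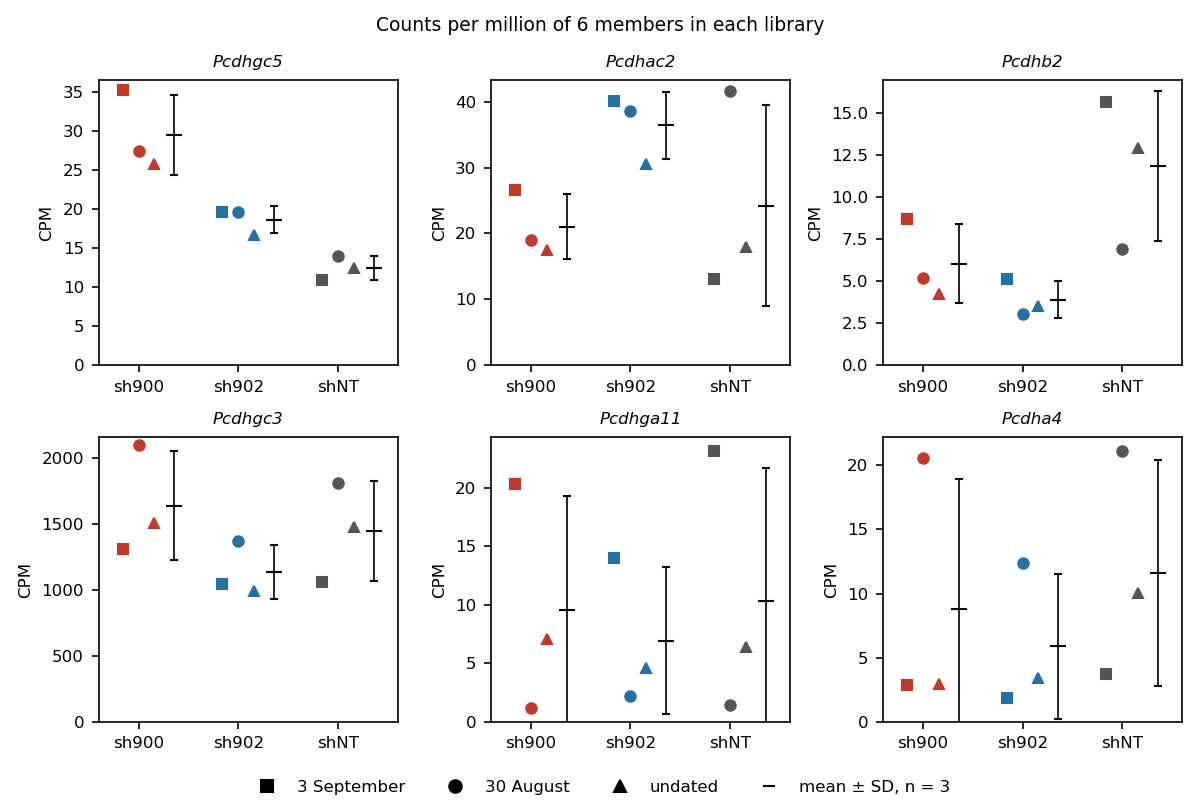
CPM (y axes, linear from 0, where lower error bars are cut) of 6 members in each library, by group (x axes: sh900, sh902, shNT), with marker shape for the date label and the bar for the mean ± SD of 3 libraries. Pcdhgc5 separates the 3 groups at 25.7 to 35.3, 16.7 to 19.6 and 10.9 to 13.9 CPM, Pcdhb2 and Pcdhgc3 overlap, and Pcdhga11 and Pcdha4 separate the labels within every group.

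Other genes of the pathway were counted in the same fit with the replicate block. Of 25 tested regulators of the locus, which include CTCF, cohesin subunits, DNA methyltransferases and silencing factors, 1 fell and 0 rose for the mean of both hairpins, when 5.59% of all genes fell and 6.08% rose, so the count is near the background and says nothing particular of the list. The gene was Dnmt3a, a de novo DNA methyltransferase, with 218, 114 and 197 CPM in sh900 libraries, 120, 82.4 and 114 CPM in sh902 libraries and 237, 167 and 208 CPM in shNT libraries (log2 fold change of the mean -0.59 ± 0.11, SE, adjusted p = 0.0157). Every sh902 library was below every shNT library. Between the hairpins, 1 of the 25 regulators was higher with sh900 than with sh902 and 0 were lower, when 2.48% of all genes were higher and 1.74% lower. It was again Dnmt3a (log2 fold change 0.79 ± 0.13, SE, adjusted p = 0.0254), whose part in the difference of the gamma members was not tested. With sh902, when 5.39% of all genes fell, 3 of the 25 regulators fell: Dnmt3a, Atf7ip, a partner of the methyltransferase Setdb1, and Ehmt1, which methylates histone H3. Their log2 fold changes were -0.99 ± 0.13, -0.56 ± 0.13 and -0.72 ± 0.18 (SE, adjusted p = 0.00779, 0.0353 and 0.0446). Ctcf, named after its values were seen, had 116, 93.1 and 114 CPM with sh900, 119, 95.3 and 122 CPM with sh902 and 125, 142 and 125 CPM with shNT, with a mean log2 fold change of -0.25 ± 0.12 (SE, adjusted p = 0.219).

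The same shares of all genes, 5.59% lower and 6.08% higher, stand behind the counts that follow for the mean of both hairpins. Of 17 tested partners of the proteins, 2 rose and 1 fell. Ptk2b, a focal adhesion kinase that gamma protocadherins inhibit, had 18.3, 7.36 and 14.6 CPM in sh900 libraries, 15.3, 8.82 and 16.1 CPM in sh902 libraries and 1.55, 1.32 and 2.75 CPM in shNT libraries. All hairpin libraries lay above all controls, with a log2 fold change of 2.83 ± 0.24 (SE, adjusted p = 0.00338). Adam10, the protease that sheds protocadherin ectodomains, rose by 0.70 ± 0.12 on the log2 scale (SE, adjusted p = 0.0131). Wasf1, a subunit of the WAVE complex that binds the tails of several protocadherins, fell by 0.69 on the log2 scale (edgeR, adjusted p = 0.0229).

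Protocadherins outside the clusters also moved. Of 11 tested, 4 fell, among them Pcdh17, Pcdh11x and Pcdh10 with log2 fold changes of -0.68 ± 0.13, -0.69 ± 0.13 and -0.78 ± 0.18 (SE, edgeR adjusted p = 0.0148, 0.0164 and 0.0286). Pcdh18 rose, with a log2 fold change of 1.08 ± 0.23 (SE, adjusted p = 0.0252). Of 15 tested cadherins of other families, 2 rose, among them Cdh13, and 4 fell, among them Fat3, Celsr1 and Dchs1. Of 18 tested genes flanking or inside the clusters, 1 rose, Cd14, and 0 fell, with a median of 0.02. Taf7, which lies between the beta and gamma clusters and was named after its values were seen, had 25.2, 16.7 and 21.8 CPM with sh900, 18.4, 17.3 and 15.9 CPM with sh902 and 21.9, 13.001 and 20.9 CPM with shNT, and its mean log2 fold change was 0.07 ± 0.16 (SE, adjusted p = 0.815). Among cell type markers, 4 of 12 astrocyte, 6 of 10 oligodendrocyte lineage and 7 of 18 neuronal genes fell, and 0, 0 and 1 rose. Of 12 neural stem cell markers 4 fell and 2 rose, and of 8 proliferation markers 0 were called. Of 10 p53 targets 8 rose and 0 fell. The beta and alpha members that fell did so beside a fall of some glial and neuronal markers. Of neural stem cell markers some fell and others rose. Their sum, led by Vim, was 7007, 11013 and 9105 CPM with sh900 for 3 September, 30 August and no date. With sh902 it was 5731, 9115 and 7015 CPM, and with shNT 4477, 5853 and 5993 CPM, the lowest at each label. The part of these markers in the result was not tested.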

How the data were processed

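Bulk RNA-seq of 9 libraries was analysed. The authors deposited 1 table of estimated counts, all of them whole numbers. Tools named per the submitters' processing notes are RSEM, STAR 2.5.0a, Trimmomatic 0.36, cutadapt and FastQC, with the build GRCm38; settings, annotation release and strand were not given in the sources used here. Symbols and coordinates came from GENCODE M21 (GRCm38) by Ensembl identifier; 54079 of 54232 rows matched. The row that this release names as a second Pcdha11 was called Pcdha10, after RefSeq GRCm38.p6. No sequence is printed here.

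In R 4.3.3, edgeR 4.0.16 was used with TMM scaling, its filter on low counts by group (17602 genes, holding 99.89% of counts), robust quasi-likelihood tests and Benjamini-Hochberg adjustment over all genes. Groups shNT, sh900 and sh902 came from the treatment labels, and all 9 libraries entered 1 model, first without, then with a replicate block for the date label. Dates shared between groups pair the libraries of 3 September and of 30 August, whose deviations from group means correlated at 0.402 to 0.645. The undated ones share only the lack of a date, and correlated at 0.0799 to 0.399. CPM was counts over the library total, RPKM that over exonic kilobases, and ratios within a label used a pseudocount of 0.25 CPM. Library totals were 23212472 to 32392496 counts; a count of 0 allows up to 3 counts, which covers counting error only. No pair of libraries in a group agreed within counting noise (lowest chi-square per degree of freedom 55.9). Scripts were tested on simulated counts. Alternatives were DESeq2 1.42.0, RLE factors, no filter, at least 1 CPM in 3 libraries, leaving out each library in turn, and using only the dated ones.

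Members and gene lists were chosen with earlier results of these data known. Members named in full were up to 12 called members by smallest adjusted p, the 3 most abundant, the first and the last of each cluster, and the C-type genes; Pcdhb2, Pcdhb5, Pcdha3 and Pcdha6 were added as examples, like Ctcf and Taf7, after their values were seen.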

Additional observations from a re-analysis of the deposited data

Results flagged for a closer look

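For 11 members the effects of the 2 hairpins differed in a direct test, edgeR's quasi-likelihood test of sh900 against sh902 with the replicate block at an adjusted p under 0.05. The log2 fold change of sh900 against sh902 was 1.46 for Pcdha11, 1.33 for Pcdhga2, 1.05 for Pcdhgb2, 1.02 for Pcdhgb8 and 1.02 for Pcdhga1. It was 0.93 for Pcdhga4, 0.92 for Pcdhga5, 0.87 for Pcdhga6, 0.81 for Pcdhgb6, 0.73 for Pcdhgc5 and 0.65 for Pcdhgc4. Of these, Pcdhgb8 held its call in 5 of 9 fits with a library left out, and the other 10 in 1 to 4.

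For 8 of the 56 tested members both hairpin libraries lay on 1 side of the control on 3 September and on the other side on 30 August. The share of all genes so placed was not counted, and both hairpins of a label share 1 control library. The mean log2 ratio to the control on 3 September minus that on 30 August was 1.93 for Pcdhac2 and 0.89 for Pcdhac1, which were above control on 3 September. It was -1.25 for Pcdhb13, -1.25 for Pcdhb15, -1.08 for Pcdhb16, -1.32 for Pcdhb17, -0.63 for Pcdhb22 and -1.71 for Pcdhga10, which were below control on 3 September. This difference was not tested, each label holding 1 library of a group.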

How the results depend on the processing

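The counts of called members changed with the model. Without the block edgeR called 0 members in each comparison of hairpins; the replicate block called 12 for the mean of both hairpins, 4 for sh900, 19 for sh902 and 11 between the hairpins, and DESeq2 without the block called 3, 1, 6 and 6. The filter on low counts was varied only without the block in the comparisons of hairpins. There edgeR called 1 member for sh900 and 1 between the hairpins with no filter, and 1 between the hairpins with at least 1 CPM in 3 libraries. Leaving out each library in turn gave 0 to 0 without the block for the mean, sh900 and sh902 and 0 to 1 between the hairpins, and with the replicate block 0 to 29 for the mean, 0 to 15 for sh900, 0 to 41 for sh902 and 0 to 19 between the hairpins, the highest of each without the shNT library of 30 August. On the dated libraries alone with the replicate block the counts were 0 in all 4. For the fits with a library left out, the share of all genes called was not counted. For 3 September against 30 August the 26 calls became 17 on the dated libraries alone, an alternative chosen after seeing the data, and ran from 13 to 29 with a library left out. The cause was not tested, beyond fewer libraries in those fits. The log2 difference of cluster sums between hairpin and shNT libraries was -0.31 for alpha, -0.60 for beta and -0.09 for gamma. With a library left out these ran from -0.45 to -0.13, -0.89 to -0.36 and -0.21 to 0.01, and the other choices left each within the spread between libraries. No called value changed sign. Members under about 1 CPM rest on few counts.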
